A study of Mus musculus with 24 samples.

Results

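Collagens are the main structural proteins of the extracellular matrix, and their genes were followed here in whole mammary glands of 24 aged mice. A collagen molecule is a triple helix of alpha chains, each chain encoded by its own gene, so genes such as Col1a1 and Col1a2 supply the chains of a single trimer. Fibrillar types build the tensile fibres of the connective tissue around ducts and fat lobules. Type IV forms the sheet-like network of basement membranes, which lies under duct epithelium and vessel walls and around each fat cell and muscle fibre, while other types decorate fibrils, form fine filaments or anchor epithelium. The genes were chosen from the deposited expression table by name alone, as the rows marked protein coding whose symbol is Col, a number, a, and a number. The rule found 44 genes among the 55487 of the table, and it used no measured value. Of the 44, 34 reached at least 1 TPM in at least 3 samples and were tested, and the other 10 are described by level.

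Levels are in TPM, a share of transcripts that is corrected for their length and sums to the same total in each library. Each group held 3 mice, and 4 groups belonged to each of 2 transgenic lines, with the genotypes MMTV-rtTA/tet-op-CYP19A1 and MMTV-rtTA/tet-op-Esr1. CYP19A1 encodes aromatase, which makes oestrogens from androgens, and Esr1 encodes oestrogen receptor alpha. The tet-op transgene is switched on by the rtTA activator in the presence of doxycycline. The MMTV promoter drives rtTA in mammary epithelium and some other tissues. The descriptions of the 18-month samples carry the tag Doxy, and those of the 20-month samples do not, although their titles state induction. In each line the groups were 20-month mice with a tamoxifen implant (25 mg released over 60 days), 20-month mice with a letrozole implant (2.5 mg over 60 days), 20-month mice with neither drug, and 18-month mice. The implants were placed under the skin at 18 months, so exposure lasted 2 months, and the transgene had been induced for 8 months in 20-month mice and 6 months in 18-month mice. Tamoxifen binds the oestrogen receptor and modulates it, and letrozole inhibits aromatase. The drug-free 20-month samples, called untreated here, carry the tag PLA in their descriptions, which the labels do not explain. No group lacked a transgene. The labels give each sample its own animal number, and the samples of a group are biological replicates by their titles.

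The libraries were whole-tissue RNA and held several tissues. Nuclear protein-coding genes took 28.4% to 37.3% of the TPM of a library, 7SL RNA 19.9% to 38.8% and mitochondrial RNA 9.82% to 27.9%. Ribosomal RNA took 0.0145% to 2.02% in 23 libraries and 17.4% in replicate 2 of the untreated 20-month Esr1 mice. All 8 epithelial markers, all 8 fibroblast markers and all 8 fat cell markers were above 0 in all libraries, and so were all 12 skeletal muscle markers. Levels above 0 therefore do not single out the labelled tissue. The epithelial markers summed to a median of 349 TPM and the muscle markers to a median of 20530 TPM. The muscle score, a mean of log2(TPM + 1), was 1.66 in replicate 3 of the 18-month CYP19A1 mice and 3.49 in replicate 1 of the 18-month Esr1 mice, against a median of 9.91. Esr1 averaged 15.1 ± 2.38 TPM in the CYP19A1 line and 14.5 ± 2.64 TPM in the Esr1 line (SD, n = 12 each), so its level did not set the lines apart. Mouse Cyp19a1 did not exceed 0.27 TPM in the CYP19A1 line or 0.15 TPM in the Esr1 line, and a human CYP19A1 sequence was not analysed here. Lines are therefore named by their labels. In bulk tissue, fewer cells of a type and less RNA per cell cannot be told apart, and this holds for each level below.

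Summed over the 44 genes, collagen took between 310.1 and 1812 TPM of a library. In the CYP19A1 line the sum averaged 1467 ± 111 TPM under tamoxifen, 757 ± 392 under letrozole, 1095 ± 284 at 20 months untreated and 1359 ± 134 at 18 months (SD, n = 3 each). In Esr1 mice it averaged 1436 ± 443 TPM under tamoxifen, 1281 ± 159.5 under letrozole, 1153 ± 535 at 20 months untreated and 1273 ± 69.5 at 18 months. The mean of the CYP19A1 letrozole group was the lowest of the 8, and its replicate 3 gave the lowest sum of all libraries. Col3a1 alone supplied a median of 33.4% of the collagen sum, Col4a1 10.9%, Col1a2 8.88% and Col1a1 5.17%. By class, fibrillar genes supplied a median of 55.0%, type IV genes 17.0%, beaded filament genes 14.1%, basement membrane zone genes 6.75%, fibril-associated genes 4.82%, transmembrane genes 0.69% and hexagonal network genes 0.40%. No collagen was at 0 TPM in any library.

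Fibrillar collagens form the cross-banded fibres that carry load. Col3a1 (chr1:45311538-45349706 in GRCm38, the assembly of mm10), which encodes the homotrimeric type III chain of soft connective tissue, was the most abundant collagen at a mean of 415 TPM over the 24 libraries. Col1a2 (chr6:4505618-4541543) and Col1a1 (chr11:94936224-94953042), whose chains join as the type I trimer, followed among fibrillar genes at 111 and 66.0 TPM. The promoters of the 2 most abundant fibrillar genes are shown because they carry the largest values of the set. They are the RefSeq windows on GRCm38.p6 from 250 bases before to 50 bases after a start site, at chr1:45311288-45311587, plus strand, and chr6:4505368-4505667, plus strand, read 5′ to 3′ along the gene. Capitals mark the TATA box letters TATAAA, the CCAAT box letters CCAAT and the GC box letters GGGCGG, each searched on both strands, so that ATTGG and CCGCCC are marked too.
Col3a1: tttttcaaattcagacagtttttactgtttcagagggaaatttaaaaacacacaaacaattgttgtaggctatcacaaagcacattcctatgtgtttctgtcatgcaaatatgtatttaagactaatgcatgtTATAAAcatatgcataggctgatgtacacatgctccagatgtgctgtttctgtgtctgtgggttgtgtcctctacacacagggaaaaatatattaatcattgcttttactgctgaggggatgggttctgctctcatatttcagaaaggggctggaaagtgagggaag
Col1a2: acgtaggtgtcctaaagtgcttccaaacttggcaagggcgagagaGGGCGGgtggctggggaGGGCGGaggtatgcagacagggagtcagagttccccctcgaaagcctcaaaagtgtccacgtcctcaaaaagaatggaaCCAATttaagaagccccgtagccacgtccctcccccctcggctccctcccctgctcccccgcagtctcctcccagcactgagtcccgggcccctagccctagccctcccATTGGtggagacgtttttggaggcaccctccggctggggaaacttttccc

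The Col3a1 window held 1 TATA box and no GC box, whereas the Col1a2 window held 2 CCAAT boxes and 2 GC boxes, none of which overlap. Of all 32851 RefSeq promoter windows of this length, 13.6% held TATAAA, 37.4% CCAAT and 35.7% GGGCGG. The table had 38 windows for 35 of the 44 collagens, of which 5 held TATAAA, 13 CCAAT and 23 GGGCGG. The palindromic oestrogen response element, GGTCA and TGACC spaced by 3 bases of any kind, was in 0.07% of all windows and in 0 of the 38. A match is a match of letters and not a measured binding site, and a missing match says only that the letters are not in these 300 bases.

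Col3a1 stood in the CYP19A1 line at 585, 560.5 and 468 TPM under tamoxifen, 279, 321 and 48.5 under letrozole, 531, 316 and 257 at 20 months untreated and 361, 555 and 494 at 18 months. In the Esr1 line it stood at 316, 687 and 491 TPM under tamoxifen, 345, 467 and 444 under letrozole, 647, 272 and 347 at 20 months untreated and 324, 382 and 461 at 18 months. Replicate 3 of the CYP19A1 letrozole mice was the lowest of the 24 libraries, the next lowest library held 257 TPM, and the 3 tamoxifen mice of that line all lay above its 3 letrozole mice. Here and below, a lack of overlap describes groups of 3 mice and is not a test. How many of all genes separate groups in this way was not counted, so nothing particular to collagens is read from it. Col1a2 was measured in the CYP19A1 line at 167, 165 and 129 TPM under tamoxifen, 74.5, 92.5 and 32.8 under letrozole, 131, 91.8 and 117 at 20 months untreated and 90.8, 120.4 and 118 at 18 months. Its Esr1 values were 84.3, 209.8 and 149.9 TPM under tamoxifen, 101, 111 and 96.7 under letrozole, 127, 54.9 and 93.6 at 20 months untreated and 108, 104 and 104 at 18 months. As with Col3a1, the CYP19A1 tamoxifen mice did not overlap the CYP19A1 letrozole mice, and the Esr1 tamoxifen mice spread widely. Col1a1 held 107, 99.0 and 89.9 TPM in CYP19A1 tamoxifen mice, above the 49.2, 58.9 and 11.2 TPM of letrozole mice and the 74.7, 53.1 and 50.9 TPM of untreated 20-month mice of that line.

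The other fibrillar genes were lower. Type V chains, which nucleate type I fibrils and limit their width, averaged 40.7 TPM for Col5a2, 23.0 TPM for Col5a1 and 21.2 TPM for Col5a3. Col27a1, a fibrillar gene best known from cartilage, averaged 2.7 TPM. Col11a1 reached 0.42 to 1.23 TPM and was at or above 1 TPM in 8 libraries. Col11a2, Col24a1 and Col2a1 were not tested, with ranges of 0.29 to 1.43, 0.03 to 1.04 and 0.01 to 0.67 TPM. Col2a1 is the defining cartilage collagen.

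**Figure D1:**
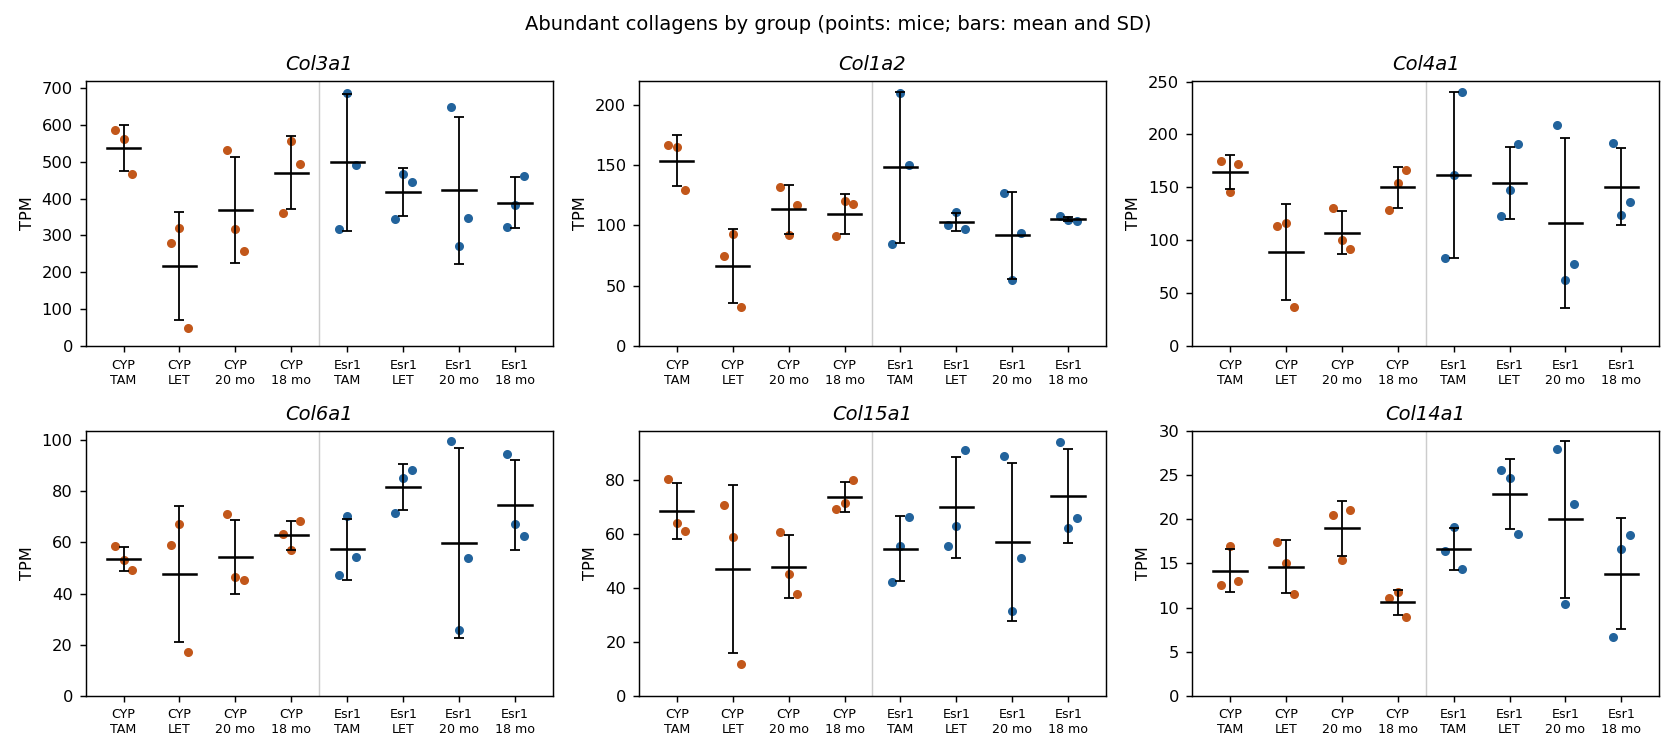
TPM of 6 abundant collagens (a panel each, linear axes starting at 0) in the 8 groups, CYP19A1 line left of the grey line and Esr1 line right of it; TAM is tamoxifen, LET letrozole and 20 mo untreated. Points are mice, thick bars are means and thin bars SD over 3 mice. For Col3a1 the CYP19A1 letrozole point at 48.5 TPM lies far below the others, and the same mouse is lowest in the panels of Col1a2, Col4a1, Col6a1 and Col15a1.

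Type IV chains make the basement membrane network. Col4a1 (chr8:11198423-11312889) and Col4a2 (chr8:11312805-11449287) encode the chains of the common trimer, found under all epithelia and around vessels, fat cells and muscle fibres, and averaged 137 and 63.7 TPM. The genes lie head to head on opposite strands, their RefSeq start sites 21 bases apart, and their promoter windows share 78 bases. Both windows are shown because the pair shares a start region. The windows are chr8:11312777-11313076, minus strand, and chr8:11312555-11312854, plus strand, each read along its own gene, with capitals as above.
Col4a1: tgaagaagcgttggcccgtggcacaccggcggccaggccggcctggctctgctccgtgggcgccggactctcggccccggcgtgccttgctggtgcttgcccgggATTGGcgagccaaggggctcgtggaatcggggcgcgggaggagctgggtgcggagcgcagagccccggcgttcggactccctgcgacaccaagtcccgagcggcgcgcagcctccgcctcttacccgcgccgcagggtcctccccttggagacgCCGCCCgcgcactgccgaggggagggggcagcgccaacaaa
Col4a2: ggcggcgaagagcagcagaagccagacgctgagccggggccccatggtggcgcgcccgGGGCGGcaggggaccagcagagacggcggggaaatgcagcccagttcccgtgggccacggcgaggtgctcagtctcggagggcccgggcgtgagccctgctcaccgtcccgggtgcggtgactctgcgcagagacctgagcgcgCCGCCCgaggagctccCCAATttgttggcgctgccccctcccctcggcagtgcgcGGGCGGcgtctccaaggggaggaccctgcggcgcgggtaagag

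Each window held a CCAAT box, the Col4a1 window 1 GC box and the Col4a2 window 3, 1 of which lies in the shared bases and is seen from both sides. Col4a1 was at 175, 146 and 172 TPM under tamoxifen, 113, 117 and 36.8 under letrozole, 130.4, 99.8 and 91.4 at 20 months untreated and 129, 154 and 167 at 18 months in the CYP19A1 line. In the Esr1 line it was at 83.3, 162 and 240.1 TPM under tamoxifen, 123, 148 and 191 under letrozole, 208, 62.5 and 77.4 at 20 months untreated and 192, 124 and 136 at 18 months. The CYP19A1 tamoxifen mice lay above the untreated 20-month and letrozole mice of that line, with no overlap, though Col4a1 passed in neither comparison. The Esr1 tamoxifen mice ran from 83.3 TPM to the highest of the 24 values. Col4a2 was at 81.8, 66.4 and 84.5 TPM under tamoxifen, 50.8, 54.1 and 22.4 under letrozole, 61.3, 43.5 and 42.8 at 20 months untreated and 69.2, 75.8 and 74.1 at 18 months in the CYP19A1 line. For Esr1 mice the Col4a2 values were 42.6, 70.1 and 129 TPM under tamoxifen, 54.1, 70.0 and 80.5 under letrozole, 81.7, 29.9 and 41.8 at 20 months untreated and 96.2, 50.1 and 56.5 at 18 months. The ratio of Col4a1 to Col4a2 TPM stayed between 1.64 and 2.55 in all 24 libraries, although Col4a1 itself ranged from 36.8 to 240.1 TPM. The annotated spans of these genes overlap at their start ends, and the sources used here do not say whether the authors' counting used strand.

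Col4a5 and Col4a6, neighbours on the X chromosome with start sites 1343 bases apart, encode chains of a trimer found under smooth muscle and in the basement membrane of ducts and skin. They averaged 6.54 and 7.62 TPM. Their TPM ratio ranged from 0.59 to 1.34, and both were lowest in replicate 1 of the CYP19A1 letrozole mice and highest in replicate 1 of the 18-month CYP19A1 mice. The chains of the kidney-type trimer, Col4a3 and Col4a4, were not tested, at 0.27 to 0.85 and 0.34 to 0.90 TPM.

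Among collagens of the basement membrane zone, Col15a1 (chr4:47207655-47313167) links basement membranes to the fibres around them, and Col18a1 carries the endostatin fragment. Col15a1 was found in the CYP19A1 line at 80.3, 64.1 and 61.2 TPM under tamoxifen, 70.7, 58.9 and 11.7 under letrozole, 60.6, 45.2 and 37.9 at 20 months untreated and 69.3, 71.6 and 79.9 at 18 months. For Esr1 mice it was 42.1, 55.4 and 66.3 TPM under tamoxifen, 55.7, 63.1 and 91.3 under letrozole, 89.0, 31.4 and 51.0 at 20 months untreated and 94.2, 62.4 and 65.8 at 18 months. Replicate 3 of the CYP19A1 letrozole mice was again the lowest, and in that line the 18-month mice lay above the untreated 20-month mice without overlap. Col18a1 ranged in the CYP19A1 line over 18.6, 15 and 19.1 TPM under tamoxifen, 18.9, 19.7 and 6.20 under letrozole, 19.2, 15.1 and 11.8 at 20 months untreated and 21.7, 19.9 and 27.2 at 18 months. Over Esr1 mice the values were 10.9, 16.7 and 19.3 TPM under tamoxifen, 17.5, 21.7 and 26.9 under letrozole, 22.1, 6.77 and 13.8 at 20 months untreated and 30.9, 17.4 and 16.2 at 18 months. The lowest Col18a1 libraries were replicate 3 of the CYP19A1 letrozole mice and replicate 2 of the untreated 20-month Esr1 mice. Col7a1, the anchoring fibril collagen that ties epithelial basement membrane to the stroma, ranged from 2.84 to 9.48 TPM.

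Type VI collagen forms beaded filaments around cells, and its main trimer joins the products of Col6a1 (chr10:76708792-76726044), Col6a2 and Col6a3. Col6a1 showed in the CYP19A1 line 58.5, 53.0 and 49.3 TPM under tamoxifen, 58.9, 67.0 and 17.3 under letrozole, 71.1, 46.6 and 45.1 at 20 months untreated and 63.5, 57.0 and 68.2 at 18 months. Esr1 mice showed for Col6a1 47.2, 70.4 and 54.1 TPM under tamoxifen, 71.6, 85.2 and 88.3 under letrozole, 99.6, 25.7 and 54.0 at 20 months untreated and 94.8, 67.1 and 62.4 at 18 months. Within each line the groups overlapped, except that Esr1 tamoxifen mice lay below Esr1 letrozole mice, and the spread within the untreated 20-month Esr1 group was the widest. Col6a2 gave in the CYP19A1 line 53.7, 46.6 and 44.3 TPM under tamoxifen, 42.0, 51.2 and 11.5 under letrozole, 59.7, 40.1 and 39.1 at 20 months untreated and 58.9, 48.6 and 58.5 at 18 months. Esr1 mice gave for Col6a2 48.1, 65.9 and 52.0 TPM under tamoxifen, 53.3, 65.5 and 68.9 under letrozole, 82.4, 23.8 and 50.6 at 20 months untreated and 73.0, 56.3 and 56.2 at 18 months. The lowest Col6a2 values, 11.5 and 23.8 TPM, came from the same mice as the lowest Col6a1 values. Col6a3 averaged 49.3 TPM. The chains with a narrower distribution were low: Col6a6 averaged 2.14 TPM and Col6a5 1.15 TPM. Col6a4 and Col26a1 were not tested and reached at most 0.84 and 0.54 TPM.

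Col28a1 (chr6:7997100-8193709) is the gene of a collagen related to type VI in its von Willebrand factor domains and known from the sheaths of peripheral nerve. It is shown with its promoter because it was the 1 collagen that passed between the lines, though not under either drug. The RefSeq window, chr6:8192568-8192867, minus strand, surrounds a start site inside the gene's annotated span and held none of the letters searched, so it has no capitals.
Col28a1: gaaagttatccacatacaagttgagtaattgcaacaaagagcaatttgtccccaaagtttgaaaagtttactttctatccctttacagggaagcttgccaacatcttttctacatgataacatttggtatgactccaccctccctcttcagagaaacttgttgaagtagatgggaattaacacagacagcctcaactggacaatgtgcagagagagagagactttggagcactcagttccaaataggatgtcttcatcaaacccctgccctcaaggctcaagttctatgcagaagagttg

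Col28a1 was a low gene, at 1.07, 1.12 and 0.63 TPM under tamoxifen, 0.74, 0.52 and 1.06 under letrozole, 0.87, 1.78 and 1.24 at 20 months untreated and 2.26, 2.68 and 0.92 at 18 months in the CYP19A1 line. In the Esr1 line it was at 0.42, 0.69 and 1.42 TPM under tamoxifen, 0.91, 0.90 and 1.13 under letrozole, 0.35, 0.26 and 0.19 at 20 months untreated and 0.22, 0.35 and 0.39 at 18 months. All CYP19A1 mice exceeded all Esr1 mice at 18 months and at 20 months untreated, whereas the lines overlapped under either drug. Letrozole-treated Esr1 mice also lay above untreated 20-month Esr1 mice with no overlap. Col28a1 reached 1 TPM in 9 of 24 libraries. None of these came from untreated or 18-month Esr1 mice, so the gene met the filter mostly through the CYP19A1 line. The number of reads behind such low values is unknown, since TPM does not keep it.

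**Figure D2:**
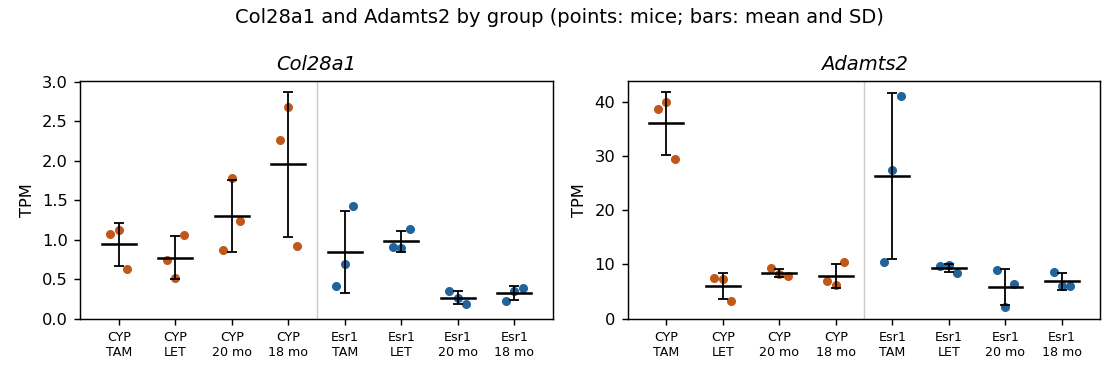
TPM of Col28a1 (left) and of Adamts2, a protease that trims procollagen (right), in the 8 groups on linear axes starting at 0; points are mice, thick bars means and thin bars SD over 3 mice. Col28a1 shows 2.26, 2.68 and 0.92 TPM in 18-month CYP19A1 mice against 0.22, 0.35 and 0.39 in 18-month Esr1 mice, and Adamts2 has its highest group means under tamoxifen in both lines.

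Fibril-associated collagens coat or bridge fibrils. Col16a1 (chr4:130047817-130099277), a minor collagen of basement membrane zones and fibril surfaces, was the most abundant of them at a mean of 24.9 TPM, followed by Col14a1 at 16.5 TPM. The Col16a1 promoter window, chr4:130047590-130047889, plus strand, is shown because the gene passed under letrozole, and it held 1 CCAAT box and 2 GC boxes.
Col16a1: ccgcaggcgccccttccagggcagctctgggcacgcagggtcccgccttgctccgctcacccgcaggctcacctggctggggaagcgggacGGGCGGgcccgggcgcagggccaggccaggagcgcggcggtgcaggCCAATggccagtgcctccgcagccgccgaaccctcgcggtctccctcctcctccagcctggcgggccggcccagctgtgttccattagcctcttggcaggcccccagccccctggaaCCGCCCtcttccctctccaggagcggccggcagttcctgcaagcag

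Col16a1 had in the CYP19A1 line 21.1, 18.9 and 24.6 TPM under tamoxifen, 8.90, 14.6 and 12.2 under letrozole, 27.9, 25.6 and 18.2 at 20 months untreated and 44.6, 37.6 and 25.0 at 18 months. It had in the Esr1 line 23.5, 37.9 and 20.6 TPM under tamoxifen, 15.7, 11.3 and 14.0 under letrozole, 33.1, 21.4 and 41.3 at 20 months untreated and 23.9, 36.1 and 40.0 at 18 months. The 6 letrozole mice of both lines lay below the other 18 mice, with no overlap. Col9a1 (chr1:24177589-24252738), a chain of type IX collagen that is best known from the surface of cartilage fibrils, came in the CYP19A1 line to 0.61, 0.63 and 4.73 TPM under tamoxifen, 0.31, 1.42 and 1.33 under letrozole, 3.22, 4.47 and 1.28 at 20 months untreated and 10.8, 13.8 and 4.77 at 18 months. In Esr1 mice it came to 2.04, 9.18 and 0.32 TPM under tamoxifen, 0.53, 0.53 and 0.83 under letrozole, 5.43, 19.3 and 8.73 at 20 months untreated and 8.85, 16.5 and 17.4 at 18 months. Letrozole-treated Esr1 mice were all below 1 TPM and lay under the untreated 20-month mice of the line, the highest of which, replicate 2, was also the library with 17.4% ribosomal RNA.

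The partner chains Col9a2 and Col9a3 averaged 5.36 and 5.65 TPM and reached 12 and 13.7 TPM, although Col2a1, on whose fibrils type IX sits in cartilage, did not exceed 0.67 TPM. Across the 24 libraries the ratio of Col9a1 to Col9a2 TPM ranged from 0.11 to 3.80, far wider than that of the type IV pairs. Col14a1, a fibril-coating collagen of fibroblasts, was in the CYP19A1 line at 12.5, 17.0 and 13 TPM under tamoxifen, 17.4, 15.1 and 11.5 under letrozole, 20.5, 15.4 and 21.1 at 20 months untreated and 11.1, 11.7 and 8.98 at 18 months. In Esr1 mice it was at 16.5, 19.1 and 14.3 TPM under tamoxifen, 25.6, 24.7 and 18.3 under letrozole, 28.0, 10.4 and 21.7 at 20 months untreated and 6.67, 16.7 and 18.2 at 18 months. Untreated CYP19A1 mice lay higher at 20 than at 18 months with no overlap, the opposite order to Col15a1. Col12a1, another coat of fibrils, averaged 3.49 TPM and Col20a1 0.908 TPM. Col22a1, known from muscle-tendon junctions, ranged from 0.01 to 1.5 TPM and Col19a1 from 0.05 to 0.38 TPM, and neither was tested.

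**Figure D3:**
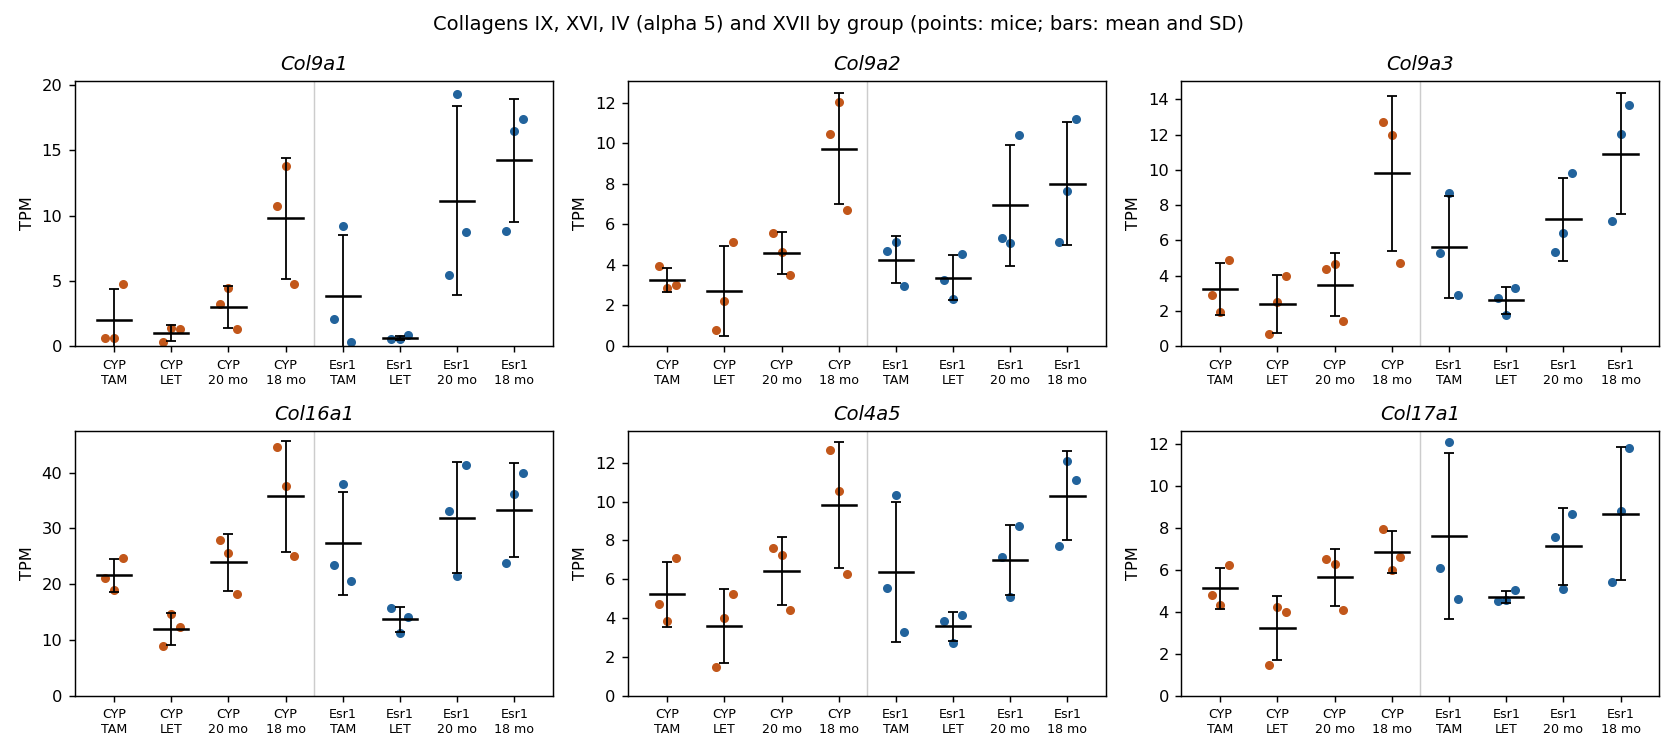
TPM of Col9a1, Col9a2, Col9a3, Col16a1, Col4a5 and Col17a1 in the 8 groups on linear axes starting at 0; points are mice, thick bars means and thin bars SD over 3 mice. In Col16a1 the letrozole mice of both lines (8.90, 14.6 and 12.2 TPM in CYP19A1 and 15.7, 11.3 and 14.0 TPM in Esr1) sit below all other mice, and Col9a1 is below 1 TPM in the Esr1 letrozole group.

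The hexagonal network collagens were low. Col8a1, a short-chain collagen of vessel walls, was in the CYP19A1 line at 3.37, 3.86 and 3.13 TPM under tamoxifen, 2.39, 3.67 and 4.12 under letrozole, 3.90, 2.96 and 3.67 at 20 months untreated and 2.07, 1.69 and 2.79 at 18 months. For Esr1 mice Col8a1 was at 2.37, 8.28 and 2.77 TPM under tamoxifen, 3.30, 4.01 and 2.99 under letrozole, 2.81, 1.07 and 2.52 at 20 months untreated and 1.55, 2.67 and 2.37 at 18 months. A tamoxifen-treated Esr1 mouse, replicate 2, stood apart at 8.28 TPM. Col10a1, known from hypertrophic cartilage, was in CYP19A1 mice at 1.71, 1.51 and 1.49 TPM under tamoxifen, 0.56, 1.32 and 1.38 under letrozole, 1.45, 1.25 and 1.80 at 20 months untreated and 1.90, 1.42 and 1.67 at 18 months. Its level in Esr1 mice was 1.54, 2.21 and 1.83 TPM under tamoxifen, 1.67, 1.29 and 1.72 under letrozole, 1.32, 1.08 and 1.86 at 20 months untreated and 1.01, 1.61 and 2.30 at 18 months. In the CYP19A1 line the letrozole mice lay below the tamoxifen and the 18-month mice, and in the Esr1 line all groups overlapped. Col8a2 was not tested, at 0.13 to 1.62 TPM.

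Transmembrane collagens sit in the cell membrane with their helices outside. Col17a1, a part of the hemidesmosomes that hold basal epithelial cells to the basement membrane, lay in the CYP19A1 line at 4.80, 4.32 and 6.20 TPM under tamoxifen, 1.48, 4.24 and 4.0 under letrozole, 6.53, 6.29 and 4.06 at 20 months untreated and 7.94, 6.00 and 6.58 at 18 months. Among Esr1 mice it lay at 6.10, 12.1 and 4.61 TPM under tamoxifen, 4.53, 4.57 and 5.04 under letrozole, 7.56, 5.10 and 8.65 at 20 months untreated and 5.43, 8.78 and 11.8 at 18 months. Replicate 1 of the CYP19A1 letrozole mice was the lowest and replicate 2 of the Esr1 tamoxifen mice the highest. Col13a1, a collagen of cell adhesion sites, lay in the CYP19A1 line at 1.14, 1.35 and 1.13 TPM under tamoxifen, 0.39, 0.63 and 0.98 under letrozole, 1.52, 1.07 and 1.56 at 20 months untreated and 2.26, 2.58 and 1.39 at 18 months. Among Esr1 mice Col13a1 lay at 0.81, 0.94 and 0.73 TPM under tamoxifen, 0.73, 0.67 and 0.73 under letrozole, 1.42, 1.03 and 2.51 at 20 months untreated and 0.46, 1.48 and 2.28 at 18 months. The drug-treated Esr1 mice were all under 1 TPM, but so was an 18-month Esr1 mouse. Col23a1 and Col25a1 averaged 1.03 and 0.812 TPM.

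The lines were compared first, CYP19A1 minus Esr1, with limma on log2(TPM + 1) over all 19325 genes tested, a gene passing at a Benjamini-Hochberg adjusted p under 0.05. Differences are on this log2 scale with the standard error of the fit, and the scale understates the change of low genes. Averaged over the 4 conditions, 1 of 34 collagens passed, Col28a1, which was higher in the CYP19A1 line (0.47 ± 0.11, adjusted p = 0.0105), against 7.27% of all genes that passed in either direction. Col28a1 was also the 1 collagen that passed at 18 months (1.11 ± 0.22, adjusted p = 0.00953; 1.36% of all genes) and at 20 months untreated (0.84 ± 0.22, adjusted p = 0.0326; 5.27% of all genes). As given above, this gene met the filter mostly through the line where it was higher. Its difference was 0.10 ± 0.22, adjusted p = 0.981 under tamoxifen and -0.17 ± 0.22, adjusted p = 1 under letrozole, so it did not pass under either drug. These conditions were set against each other in tests of how far each drug effect differed between the lines. For Col28a1 this difference was -1.01 ± 0.32, adjusted p = 0.310, for letrozole and -0.74 ± 0.32, adjusted p = 0.431, for tamoxifen, neither past the threshold.

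The Col28a1 call held for the line average in all 31 alternative analyses that tested the gene, with log2 differences of 0.42 to 1.00, the highest with a pseudocount of 0.1. The 18-month call was lost without replicate 1 (adjusted p = 0.0724) or replicate 2 (adjusted p = 0.0808) of the CYP19A1 mice, the limma values over the alternatives running from 0.000787 to 0.0808. The 20-month call held in 6 of 12 alternatives. It was lost without CYP19A1 replicate 2 (adjusted p = 0.126) or 3 (0.114), without Esr1 replicate 2 (0.0760) or 3 (0.0800), and with no filter on low values (0.0550), all with limma.

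No other collagen passed between the lines. On average over conditions the next smallest p-values belonged to Col5a3 (-0.60 ± 0.21, adjusted p = 0.103) and Col17a1 (-0.36 ± 0.15, adjusted p = 0.193), both lower in CYP19A1 without passing. Col5a3, a fibrillar chain of type V, passed when replicate 2 of the untreated 20-month Esr1 mice was left out (-0.72, adjusted p = 0.0215). Of the 34 collagens, 25 had negative averages, with a median difference of -0.11 over the 34 collagens and 0.00 over all genes tested. At 18 months Col27a1 (0.53 ± 0.22, adjusted p = 0.468) and Col6a6 (-0.58 ± 0.34, adjusted p = 0.748) came next, and at 20 months untreated Col20a1 (0.38 ± 0.16, adjusted p = 0.158) and Col9a1 (-1.53 ± 0.64, adjusted p = 0.167). Under tamoxifen 0 of 34 passed, against 1.01% of all genes, and 1 collagen had an unadjusted limma p under 0.05, Col7a1 (-0.74 ± 0.25, adjusted p = 0.298), beside 7.86% of all genes. Col12a1 (-0.51 ± 0.27, adjusted p = 0.711) and Col9a3 (-0.60 ± 0.44, adjusted p = 0.866) followed. Under letrozole 0 of 34 passed, against 0.906%, but 8 had an unadjusted limma p under 0.05, all lower in CYP19A1, beside 7.71% of all genes. Col5a3 (-1.55 ± 0.42, adjusted p = 0.116), Col5a1 (-0.90 ± 0.33, adjusted p = 0.379) and Col3a1 (-1.34 ± 0.51, adjusted p = 0.396) led them. The Col3a1 value rested on a single library: without replicate 3 of the CYP19A1 letrozole mice it was -0.47, and that of Col5a1 was -0.42.

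Of 84 tested partner genes of collagen, 2 (2.38%) passed between the lines on average, beside 7.27% of all genes, and 2 (2.38%) at 20 months untreated, beside 5.27%. Of 9 tested collagen receptors, Itga2, the alpha chain of a collagen-binding integrin of epithelium and platelets, was lower in CYP19A1 on average (-0.61 ± 0.13, adjusted p = 0.00326), a call that held in 31 of 31 alternatives, and at 20 months untreated (-0.95 ± 0.25, adjusted p = 0.0321; 6 of 13). Of 12 tested genes of collagen degradation, the gelatinase Mmp9 was lower on average (-0.65 ± 0.19, adjusted p = 0.0371; 13 of 32 alternatives) and the membrane-type protease Mmp16 at 20 months untreated (-1.02 ± 0.29, adjusted p = 0.0469; 3 of 14). Basal keratins of the epithelial marker list were also lower in CYP19A1 on average, Krt14 (-0.72 ± 0.17, adjusted p = 0.0124; 32 of 32 alternatives) and Krt5 (-0.69 ± 0.20, adjusted p = 0.0364; 16 of 32), as 2 of the 8 markers. Other marker lists also held genes that passed on average. Higher in CYP19A1 were 2 of 8 fat cell markers, Cfd (1.19 ± 0.22, adjusted p = 0.00163; 32 of 32 alternatives) and Retn (0.80 ± 0.22, adjusted p = 0.0299; 19 of 32), and 2 of 7 endothelial markers, Emcn (0.60 ± 0.13, adjusted p = 0.00430; 32 of 32) and Kdr (0.51 ± 0.11, adjusted p = 0.00512; 32 of 32). Of 7 pericyte and smooth muscle markers, Cspg4 was higher (0.51 ± 0.14, adjusted p = 0.0233; 31 of 32) and the contractile genes Cnn1 (-0.75 ± 0.17, adjusted p = 0.00660; 32 of 32), Acta2 (-0.48 ± 0.12, adjusted p = 0.0124; 32 of 32) and Myh11 (-0.53 ± 0.15, adjusted p = 0.0291; 24 of 32) were lower. At 20 months untreated 4 of 6 T and NK cell markers were lower in CYP19A1, led by Ccl5 (-1.64 ± 0.35, adjusted p = 0.00953; 13 of 14 alternatives). The part of these cell types in the line differences was not tested.

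Age was compared as 20 months untreated minus 18 months. In the CYP19A1 line 0 of 34 collagens passed with limma, against 9.45% of all genes, and 5 had an unadjusted p under 0.05, as did 29.3% of all genes. The smallest p-values belonged to Col9a3 (-1.26 ± 0.44, adjusted p = 0.0743), Col9a2 (-0.92 ± 0.36, adjusted p = 0.10) and Col14a1 (0.78 ± 0.31, adjusted p = 0.107), so the type IX chains stood lower and Col14a1 higher at 20 months without passing. Col9a3 held 4.37, 4.65 and 1.44 TPM at 20 months and 12.7, 12 and 4.71 TPM at 18 months. The ages did not overlap, and replicate 3 of the 18-month mice, the mouse with the lowest muscle score, lay nearest the older mice. Without it the Col9a3 difference was -1.67 (limma adjusted p = 0.0283). Of the 34 collagens 25 were negative, with a median of -0.25 over the 34 collagens and -0.23 over all genes tested. With median-ratio scaling, which sets the median gene near 0, these medians were 0.03 and -0.02, and Col14a1 passed (1.03, adjusted p = 0.0116).

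Around the collagens, 4 of 84 tested partner genes (4.76%) were lower at 20 than at 18 months in the CYP19A1 line, a share below the 9.45% of all genes that passed in either direction. They were the prolyl isomerase Ppib, which helps procollagen fold (-0.58 ± 0.14, adjusted p = 0.0227), Mmp16 (-1.28 ± 0.29, adjusted p = 0.0175), the inhibitory collagen receptor Lair1 of immune cells (-0.96 ± 0.30, adjusted p = 0.0463) and Lama1, a laminin chain of epithelial basement membrane (-1.54 ± 0.39, adjusted p = 0.0242). The calls held in 8 of 14 alternatives for Ppib, 11 of 14 for Mmp16, 2 of 13 for Lair1 and 10 of 14 for Lama1. In the same comparison all 12 skeletal muscle markers had positive differences, 3 of them past the threshold, with a median difference of 4.47. Their summed level was 18193 to 30592 TPM at 20 months and 56.9 to 6496 TPM at 18 months. All 8 epithelial markers had negative differences without passing, with a median of -0.69, and summed to 292 to 423 TPM at 20 months and 407 to 666 TPM at 18 months. All 6 T and NK cell markers fell past the threshold, with a median of -1.28, led by Ccl5 (-1.99 ± 0.35, adjusted p = 0.00971; 12 of 14 alternatives), and summed to 6.22 to 12.6 TPM at 20 months and 27.0 to 63.5 TPM at 18 months. The part of these contents in the values of the collagens and of Lair1 was not tested. Among Esr1 mice 0 of 34 collagens passed with age, against 0.00517% of all genes, and 0 had an unadjusted limma p under 0.05, beside 6.28% of all genes. The smallest p-values were those of Col18a1 (-0.64 ± 0.39, adjusted p = 0.732), Col14a1 (0.51 ± 0.31, adjusted p = 0.732) and Col6a5 (0.70 ± 0.49, adjusted p = 0.739). Between the lines the age effect differed for 0 of 34, against 0.00517% of all genes, with 0 at an unadjusted limma p under 0.05, beside 8.55% of all genes. Col13a1 (-0.53 ± 0.34, adjusted p = 0.692), Col9a2 (-0.74 ± 0.51, adjusted p = 0.727) and Col8a1 (0.57 ± 0.42, adjusted p = 0.742) had the smallest p-values.

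Under letrozole Col9a1 and Col16a1 were lower in the Esr1 line. Against untreated 20-month mice 2 of 34 collagens passed with limma, both lower, beside 8.65% of all genes in either direction and 5.81% lower. The count is near the share of all genes that were lower, so nothing particular to collagens is read from it. Col9a1 fell to 0.630 ± 0.173 TPM under letrozole, against 11.2 ± 7.26 TPM untreated (-2.74 ± 0.64, adjusted p = 0.0152). Col16a1 fell to 13.7 ± 2.19 TPM, against 31.9 ± 9.99 TPM (-1.13 ± 0.27, adjusted p = 0.0167). Col28a1 came next with the opposite sign and did not pass (0.64 ± 0.22, adjusted p = 0.0753), although it did with median-ratio scaling (adjusted p = 0.0393), rescaling to nuclear protein-coding genes (0.0262) or a pseudocount of 0.1 (0.0263). None of the abundant stromal genes passed: Col3a1 differed by 0.08 ± 0.51, adjusted p = 0.953, Col1a2 by 0.24 ± 0.34, adjusted p = 0.702, Col4a1 by 0.59 ± 0.44, adjusted p = 0.424 and Col6a1 by 0.64 ± 0.42, adjusted p = 0.350. By class, 7 of 8 tested fibrillar genes had positive differences, against 3 of 7 fibril-associated genes. The median was 0.17 over the 34 collagens and -0.01 over all genes tested.

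Both calls depended on single mice. For Col9a1 the limma adjusted p was 0.0525 without letrozole replicate 1, 0.0679 without letrozole replicate 2 and 0.0670 without untreated replicate 2, the library rich in ribosomal RNA. It was 0.0717 when replicate 3 of the CYP19A1 letrozole mice was left out with that library, and its range over 14 alternatives was 0.0059 to 0.0717. For Col16a1 it was 0.0892 without letrozole replicate 2 and 0.0661 without untreated replicate 3, and ran from 0.00233 to 0.0892. Leaving out untreated replicate 1 instead brought in Col5a3 (1.39, adjusted p = 0.0179) and Col23a1 (0.50, adjusted p = 0.0443), both higher. The log2 difference stayed between -3.78 and -2.28 for Col9a1 and between -1.38 and -0.93 for Col16a1.

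In the same comparison 5 of 8 epithelial markers fell, with a median of -1.43 over the list. They were the adhesion molecules Epcam (-1.94 ± 0.46, adjusted p = 0.0162) and Cdh1 (-1.89 ± 0.39, adjusted p = 0.00900) and the luminal keratins Krt8 (-1.77 ± 0.41, adjusted p = 0.0145), Krt18 and Krt19. The Cdh1 and Krt8 calls each held in 13 of 14 alternatives, those of Epcam in 11 of 14, Krt18 in 9 of 14 and Krt19 in 7 of 14. Epcam held 24.2, 17.1 and 31.7 TPM under letrozole, against 82.0, 103 and 96.4 TPM untreated, with no overlap. The summed level of the 8 markers was 129.7 to 203 TPM under letrozole, against 427 to 529 TPM untreated. Of the 8 fibroblast markers 0 passed and their median difference was 0.19. All 12 skeletal muscle markers and all 8 fat cell markers had positive differences without passing, with medians of 1.26 and 1.21. Of 6 T and NK cell markers 3 fell, Cd3d (-1.07 ± 0.24, adjusted p = 0.0117; 11 of 13 alternatives), Cd3e and Cd8a. Sox9, the transcription factor that drives cartilage collagen genes and is also made by mammary epithelium, fell (-1.48 ± 0.40, adjusted p = 0.0275; 8 of 14 alternatives), as did its relative Sox10 of basal epithelium and nerve (-1.79 ± 0.45, adjusted p = 0.0216; 9 of 14). Of the cartilage and bone list, which includes Sox9, Acan, Matn3, Ibsp, Bglap and Sp7 stayed at or under 0.44 TPM in all 24 libraries, with Matn3 at 0 in 12, Ibsp in 18, Bglap in 17, Acan in 3 and Sp7 in 1. The others of the list were at 0 in none, Comp at 0.07 to 0.90 TPM, Chad at 0.37 to 2.61 TPM and Sox9 at 1.42 to 12.6 TPM. The summed level of that list was 3.13 to 5.54 TPM under letrozole, against 7.42 to 12.1 TPM untreated. What share of the Col9a1 and Col16a1 differences goes with epithelial content was not tested.

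Among 84 tested partner genes, 8 (9.52%) passed under letrozole in the Esr1 line, a share near the 8.65% of all genes, so nothing particular to them is read from it. Of 15 tested basement membrane genes other than collagens, the laminin chains Lamb3 (-1.47 ± 0.38, adjusted p = 0.0216) and Lama1 (-1.36 ± 0.39, adjusted p = 0.0364), which belong to epithelial basement membranes, fell and Lamb2, common around vessels and muscle, rose (0.63 ± 0.19, adjusted p = 0.0439). Of 12 tested genes of degradation, Mmp16 (-1.31 ± 0.29, adjusted p = 0.0115) and Mmp15 (-1.08 ± 0.28, adjusted p = 0.0224) fell and the inhibitor Timp3 rose (1.16 ± 0.31, adjusted p = 0.0257). Itga2 (-0.98 ± 0.25, adjusted p = 0.0210) and Ppib (-0.50 ± 0.14, adjusted p = 0.0361) fell as well. The calls held in 13 of 14 alternatives for Mmp16, 9 of 14 for Lamb3, 8 of 14 for Mmp15, 6 of 14 for Lamb2, 7 of 13 for Itga2, and 7 of 14 each for Lama1, Timp3 and Ppib. None of the 8 tested small proteoglycans of fibrils, such as decorin and lumican, and none of the 10 profibrotic signals passed in this comparison with limma.

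In the CYP19A1 line letrozole minus untreated gave 0 of 34 collagens past the threshold, against 0.0207% of all genes, while 10 had an unadjusted limma p under 0.05, 9 of them lower, beside 3.79% of all genes. In all, 32 of 34 were negative, with a median of -0.46 over the 34 collagens and -0.10 over all genes tested. Col16a1 had the smallest p (-0.95 ± 0.27, adjusted p = 0.611), and its 3 letrozole mice lay below its 3 untreated mice as in the Esr1 line. Col25a1 (-0.57 ± 0.21, adjusted p = 1) and Col1a2 (-0.87 ± 0.34, adjusted p = 1) followed. Col9a1 held 1.02 ± 0.617 TPM under letrozole and 2.99 ± 1.61 TPM untreated (-0.94 ± 0.64, adjusted p = 1). Without replicate 3 of the letrozole mice the collagen median was -0.27. All 8 fibroblast markers and all 8 epithelial markers were lower on average under letrozole, with medians of -0.62 and -0.90, and none of them passed. The fibroblast score was 3.86 in replicate 3, against 4.51 to 4.68 in the other letrozole mice and 4.97 to 5.09 in untreated mice. The fat cell score was 7.49 in replicate 3, against 9.03 and 9.29 in the other letrozole mice and 8.44 to 8.72 in untreated mice, and the macrophage score was 3.59, against 4.21 and 4.53, and 4.17 to 4.86 untreated. The epithelial markers summed to 63.2 to 268 TPM under letrozole and 292 to 423 TPM untreated. The part of fibroblast, fat cell, macrophage and epithelial content in the collagen values was not tested.

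The letrozole effect was then compared between the lines, CYP19A1 minus Esr1. It differed for 0 of 34 collagens, against 0% of all genes, with 5 at an unadjusted limma p under 0.05, all lower, beside 11.8% of all genes. Col6a3 (-1.80 ± 0.56, adjusted p = 0.310), Col28a1 and Col5a1 (-1.31 ± 0.47, adjusted p = 0.338) had the smallest p-values. For Col6a3 the value was -1.16 without replicate 3 of the CYP19A1 letrozole mice and -0.75 when replicate 2 of the untreated 20-month Esr1 mice was left out too. The fall of Col9a1 and Col16a1 was thus called in the Esr1 line alone but not shown to differ between lines: the differences were 1.79 ± 0.90, adjusted p = 0.443, and 0.18 ± 0.39, adjusted p = 0.888.

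Tamoxifen minus untreated gave 0 of 34 collagens past the threshold in the CYP19A1 line, against 0.16% of all genes, and 0 at an unadjusted limma p under 0.05, beside 4.38% of all genes. Col1a1 (0.73 ± 0.42, adjusted p = 1), Col23a1 (0.28 ± 0.16, adjusted p = 1) and Col6a6 (-0.58 ± 0.34, adjusted p = 1) had the smallest p-values. The 95% interval of the Col1a1 difference ran from -0.14 to 1.61. All 8 tested fibrillar genes had positive differences, with a class median of 0.43, while 0 of 7 fibril-associated genes did. Of all 34, 18 were positive, with a median of 0.01 over the 34 collagens and 0.05 over all genes tested. Under tamoxifen in the Esr1 line 0 of 34 passed, against 1.55% of all genes, and 8 had an unadjusted limma p under 0.05, 5 higher and 3 lower, beside 18.4% of all genes. Col12a1 (0.77 ± 0.27, adjusted p = 0.140) and Col8a1 (0.70 ± 0.29, adjusted p = 0.212) were higher and Col9a1 (-1.65 ± 0.64, adjusted p = 0.173) lower without passing. Replicate 2 of the Esr1 tamoxifen mice, at 10.2 TPM of Col12a1, was the highest of all libraries for that gene and for Col8a1. That library also had the highest sum of the tendon markers Tnmd, Scx, Mkx, Thbs4 and Fmod, 22.0 TPM against a median of 10.1. Its sum of the cartilage and bone list was the highest too, 16.3 TPM against a median of 6.09. The part of such tissue in these values was not tested. Without this mouse Col9a1 passed (-2.44, adjusted p = 0.0416), and without untreated replicate 1 Col12a1 (1.01, adjusted p = 0.0427) and Col5a3 (1.35, adjusted p = 0.0413) did, all with limma. The tamoxifen effect differed between the lines for 0 of 34, against 0% of all genes, with 2 at an unadjusted limma p under 0.05, Col12a1 (-0.90 ± 0.38, adjusted p = 0.431) and Col28a1, beside 10.5% of all genes. Col7a1 followed (-0.74 ± 0.36, adjusted p = 0.483).

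A collagen-processing gene rose under tamoxifen in the Esr1 line. Adamts2, the protease that removes the amino-terminal propeptide of fibrillar procollagens, was the 1 gene of 13 tested in the list of cleavage and cross-linking to pass in any comparison. Of 84 tested partner genes, Adamts2 was the 1 (1.19%) that passed for tamoxifen in the Esr1 line, beside 1.55% of all genes. It was also the 1 (1.19%) that passed for tamoxifen against letrozole in the CYP19A1 line, beside 0.248% of all genes. It held 10.4, 27.5 and 41.0 TPM in tamoxifen-treated Esr1 mice, against 8.91, 2.24 and 6.40 TPM in untreated ones (1.95 ± 0.40, adjusted p = 0.0249), with no overlap. In CYP19A1 mice it held 38.8, 40.0 and 29.4 TPM under tamoxifen, 7.47, 7.39 and 3.24 TPM under letrozole and 9.32, 8.28 and 7.82 TPM untreated. There the tamoxifen mice overlapped neither group, and tamoxifen exceeded letrozole (2.45 ± 0.40, adjusted p = 0.00594), while the difference from untreated mice did not pass (1.96 ± 0.40, adjusted p = 0.0613). The substrates of this protease, the products of Col1a1, Col1a2 and Col3a1, did not pass in either comparison. The Esr1 call held in 10 of 14 alternatives. It was lost without tamoxifen replicate 3 (adjusted p = 0.15), without untreated replicate 2 (0.106) and with only the compared groups fitted (0.366), all with limma. The call against letrozole held in 13 of 14, and was lost without CYP19A1 tamoxifen replicate 2 (0.0565).

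The drugs were also compared directly, tamoxifen minus letrozole. In the CYP19A1 line 0 of 34 collagens passed, against 0.248% of all genes, but 11 had an unadjusted limma p under 0.05, all higher under tamoxifen, beside 10.1% of all genes. In all, 29 of 34 were positive, with a median of 0.41 over the 34 collagens and 0.16 over all genes tested. The smallest p-values belonged to the main fibrillar genes. Col1a2 averaged 154 ± 21.2 TPM under tamoxifen and 66.6 ± 30.7 TPM under letrozole (1.31 ± 0.34, adjusted p = 0.156). Col1a1 averaged 98.5 ± 8.39 TPM and 39.8 ± 25.2 TPM (1.58 ± 0.42, adjusted p = 0.173), and Col3a1 538 ± 61.9 TPM and 216 ± 147 TPM (1.71 ± 0.51, adjusted p = 0.264). All 3 genes kept tamoxifen and letrozole mice apart, though none of them passed. How many of all genes do so was not counted, so nothing particular to collagens is read from it. Leaving out letrozole replicate 3 brought the differences to 0.87 for Col1a2, 0.86 for Col1a1 and 0.84 for Col3a1, while the median over the collagens was 0.42. All 8 epithelial markers and 7 of 8 fibroblast markers were also higher under tamoxifen, with medians of 0.74 and 0.36 and none past the threshold. Their part in the collagen values was not tested.

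In the Esr1 line tamoxifen minus letrozole gave 0 of 34 past the threshold, against 0.129% of all genes, with 1 at an unadjusted limma p under 0.05, Col16a1 (0.91 ± 0.27, adjusted p = 0.324), beside 7.63% of all genes. Col12a1 (0.53 ± 0.27, adjusted p = 0.699) and Col7a1 (0.48 ± 0.25, adjusted p = 0.706) followed. The differences of the main fibrillar genes here were 0.43 ± 0.34, adjusted p = 0.863, for Col1a2 and 0.19 ± 0.51, adjusted p = 0.982, for Col3a1. Whether the contrast of the drugs differs between lines was not tested. Within a line, each drug was compared with the same untreated mice, and the direct comparison used the same drug-treated mice again. The comparisons of a line are therefore not independent.

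**Figure D4:**
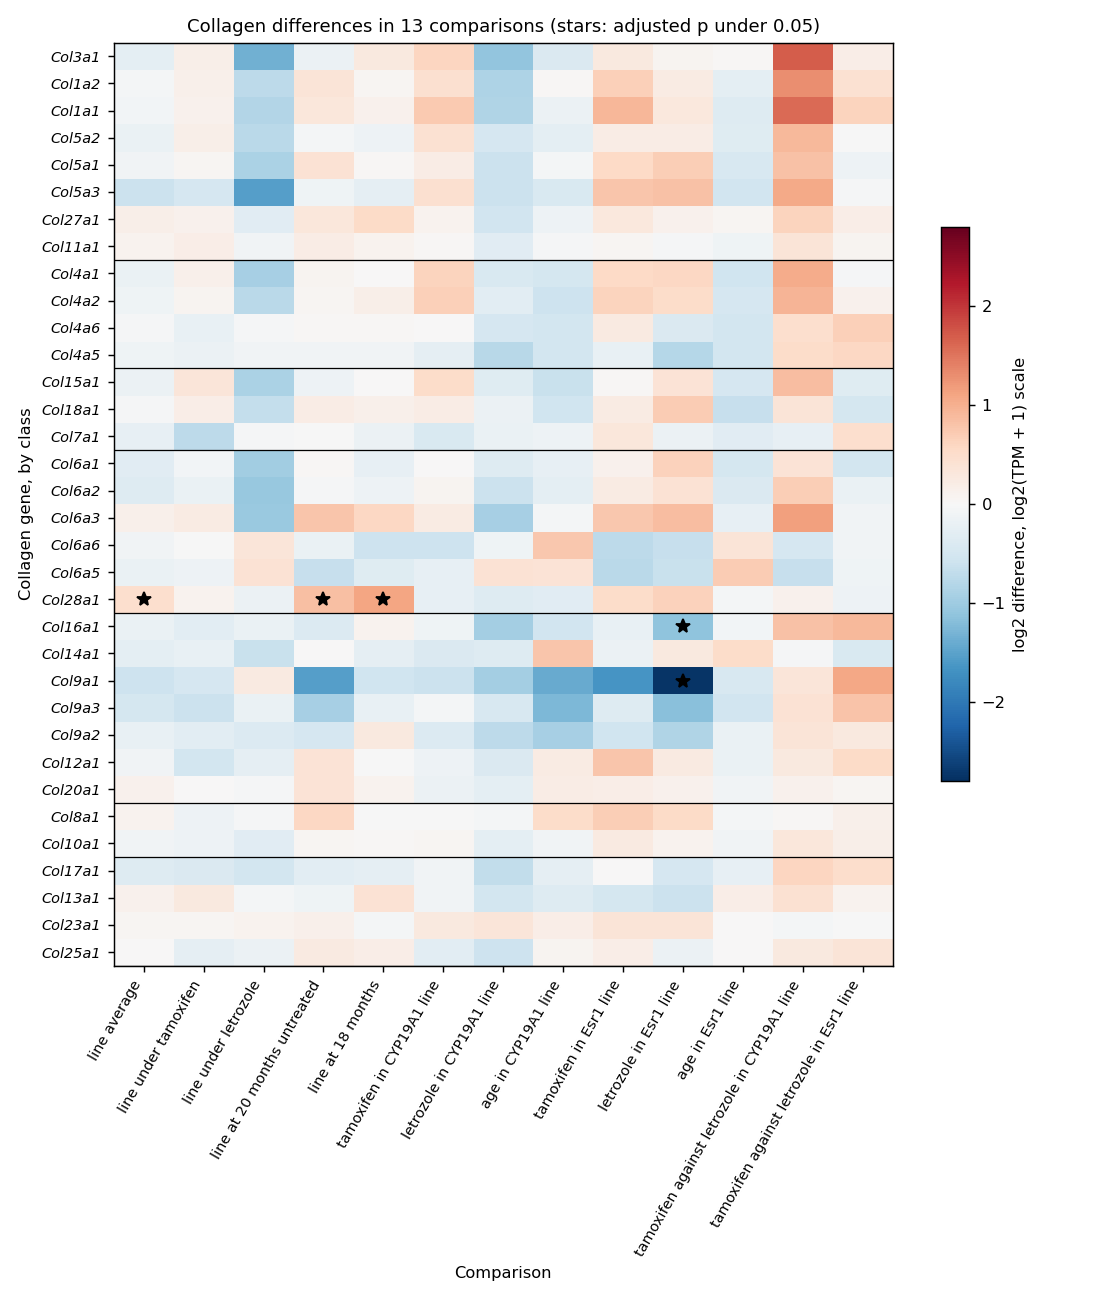
Differences on the log2(TPM + 1) scale for the 34 tested collagens (rows, by class, lines between classes) in 13 comparisons (columns); red is higher in the CYP19A1 line, the drug group, the older mice or tamoxifen against letrozole, blue lower, and stars mark a limma adjusted p under 0.05. The 5 stars are those of Col28a1 in 3 line comparisons and of Col9a1 and Col16a1 under letrozole in the Esr1 line, and the darkest red cells are Col3a1 and Col1a1 for tamoxifen against letrozole in the CYP19A1 line.

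The collagens were then set against tissue markers across mice. The level of each of the 34 genes was set against an epithelial score and a fibroblast score, each the mean log2(TPM + 1) of 8 markers, over the 24 libraries, which is 68 relations with Benjamini-Hochberg adjustment over them and 100000 permutations each. The permutations shuffled all 24 libraries without regard to group, so their p-values also take in differences between groups. With the epithelial score 11 collagens had a positive and 1 a negative Pearson correlation at an adjusted p under 0.05. The share of all genes tested that follow this score was not computed, so the count is not read as particular to collagens. Col16a1 had Pearson's r = 0.935 and Spearman's rho = 0.937, permutation p = 1e-05 and 1e-05, adjusted p = 1.13e-04 and 9.71e-05, where 1e-05 is the smallest p that the permutations can give. Without the 2 libraries farthest from the median score, replicate 1 of the CYP19A1 letrozole mice and replicate 2 of the Esr1 letrozole mice, r was 0.919. Col9a3 had Pearson's r = 0.932 and Spearman's rho = 0.940, permutation p = 1e-05 and 1e-05, adjusted p = 1.13e-04 and 9.71e-05, and r = 0.928 without those libraries. Col4a5 had Pearson's r = 0.947 and Spearman's rho = 0.925, permutation p = 1e-05 and 1e-05, adjusted p = 1.13e-04 and 9.71e-05, and r = 0.919 without them. The other positive genes were Col17a1, Col9a2, Col9a1, Col4a6, Col13a1, Col7a1, Col25a1 and Col10a1, and the negative gene was Col23a1. The relation of Col10a1 rested on the 2 farthest libraries, with Pearson's r = 0.570 and Spearman's rho = 0.380, permutation p = 0.00484 and 0.0670, adjusted p = 0.0168 and 0.223, and r = 0.243 without them. Col23a1 had Pearson's r = -0.661 and Spearman's rho = -0.771, permutation p = 5.30e-04 and 1e-05, adjusted p = 0.00323 and 9.71e-05, and r = -0.704 without them.

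The relations were also computed within groups. There, as deviations from each group's mean, r was 0.934 for Col4a5, 0.907 for Col9a3, 0.890 for Col17a1, 0.810 for Col16a1 and 0.705 for Col9a1, a measure added after the data were seen and given without a test. Over the 11 positive genes it ran from 0.512 for Col13a1 to the value of Col4a5, and it was -0.142 for Col23a1, whose relation thus did not hold within groups. The abundant stromal genes did not follow the epithelial score: Col4a1 had Pearson's r = 0.0270 and Spearman's rho = 0.0370, permutation p = 0.897 and 0.863, adjusted p = 0.928 and 0.949, and Col3a1 had Pearson's r = 0.228 and Spearman's rho = 0.224, permutation p = 0.265 and 0.290, adjusted p = 0.452 and 0.534. Without the 2 farthest libraries their r was 0.0230 and 0.251. The type IV genes thus parted, Col4a5 with the epithelial score and Col4a1 without it. Col28a1 had Pearson's r = -0.0960 and Spearman's rho = -0.242, permutation p = 0.658 and 0.255, adjusted p = 0.792 and 0.495, and r = -0.154 without the 2 libraries.

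**Figure D5:**
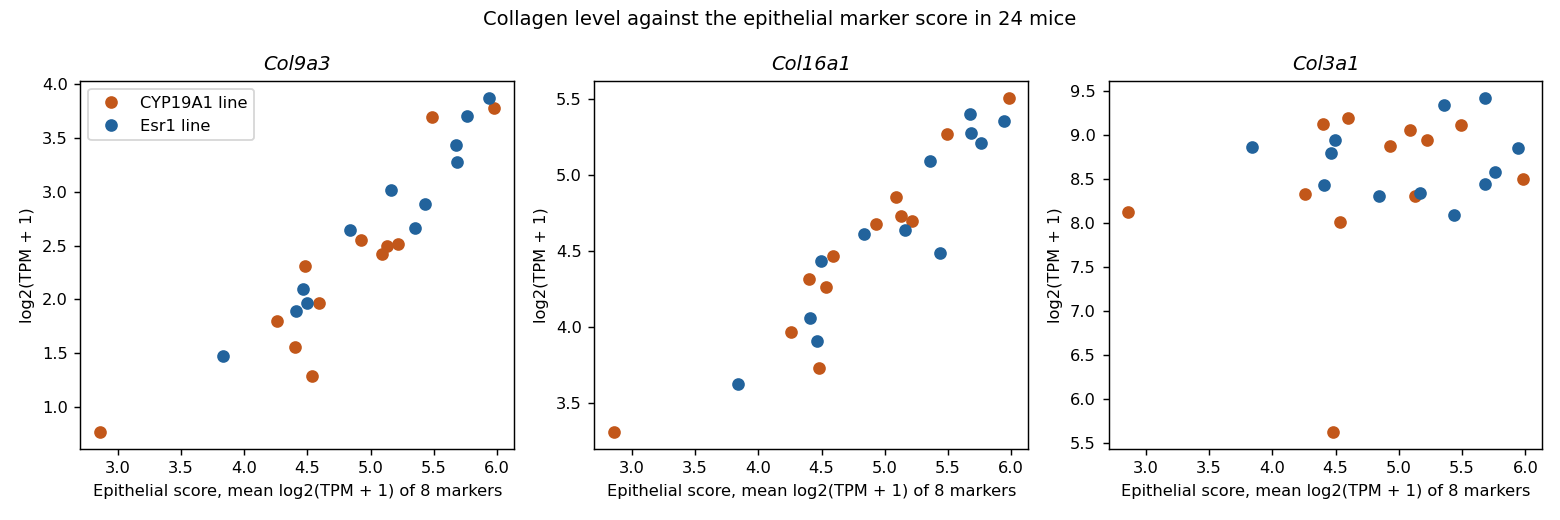
Level of Col9a3, Col16a1 and Col3a1 as log2(TPM + 1) (y axes) against the epithelial score, the mean log2(TPM + 1) of 8 epithelial markers (x axes), for 12 CYP19A1 mice and 12 Esr1 mice. Col9a3 and Col16a1 rise with the score along a common trend in both lines of mice (r = 0.932 and 0.935), while Col3a1 shows no such trend (r = 0.228).

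With the fibroblast score 13 collagens had a positive and 0 a negative Pearson correlation at an adjusted p under 0.05. The share of all genes tested was not computed for this score either, so this count is not read as particular to collagens. Several of the 13 correlations shrank without the 2 libraries farthest from the median score. These were replicate 3 of the CYP19A1 letrozole mice and replicate 2 of the untreated 20-month Esr1 mice. Without them Col3a1, Col1a2, Col5a1, Col5a2, Col6a1, Col6a2, Col15a1 and Col18a1 had r between -0.11 and 0.19. Col3a1 had Pearson's r = 0.549 and Spearman's rho = 0.323, permutation p = 0.00886 and 0.125, adjusted p = 0.0274 and 0.326, and r = 0.193 without them. Col1a2 had Pearson's r = 0.567 and Spearman's rho = 0.305, permutation p = 0.00495 and 0.146, adjusted p = 0.0168 and 0.367, and r = 0.103 without them, so these relations rest on those mice. Col14a1 had Pearson's r = 0.569 and Spearman's rho = 0.520, permutation p = 0.00382 and 0.00993, adjusted p = 0.0153 and 0.0450, and kept r = 0.512 without them. As deviations from group means, with all libraries kept, r was 0.662 for Col3a1, 0.749 for Col1a2 and 0.814 for Col14a1. Those 2 mice were also the lowest for Col6a1, Col6a2 and Col18a1.

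Chains of a shared trimer were set side by side as ratios of TPM in each library. The ratio of Col1a1 to Col1a2 TPM ran from 0.34 to 0.71 with a median of 0.60, and its lowest value came from replicate 3 of the CYP19A1 letrozole mice. Col6a1 to Col6a2 ran from 0.98 to 1.51 and Col5a1 to Col5a2 from 0.38 to 0.76. Col3a1 to Col1a1, which form separate trimers, ran from 4.32 to 10.6. The ratio of Col9a1 to Col9a2 is given above.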

How the data were processed

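RNA from 24 mammary glands was sequenced by the authors as stranded, rRNA-depleted, random-primed total RNA libraries, per the labels' protocols. The deposited table holds TPM for 55487 genes, given by the authors to 2 decimals. The submitters' processing notes name the tools STAR (2.7.9a), Trim Galore (0.6.5), FastQC (0.11.9) and RSEM (1.3.1) with the build mm10. The sources used here do not give the role of each tool or the annotation. Depth is unknown, since TPM keeps none, so no counting interval is given.

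Tests used limma 3.58.1 in R 4.3.3 on log2(TPM + 1) with 8 group means over all 24 samples, moderated with a trend and robust settings, for the 19325 genes that reached 1 TPM in 3 or more samples. P-values were adjusted by Benjamini-Hochberg over these genes in each of 16 comparisons and called at 0.05. The code was tested on simulated data. Correlations with marker scores used 100000 permutations of all 24 libraries, without regard to group.

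The collagens, classes, partner lists and marker lists were chosen with earlier results of these data known. A list of markers is not reported here. Values in each mouse are given for collagens that passed and for the 2 with the highest mean of each class. Named besides are the 3 collagens with the smallest p in each comparison and partner genes that passed. Gene positions and promoter windows are from RefSeq on GRCm38.p6, which held a window for 35 of the 44 collagens. Alternatives were a pseudocount of 0.1, no filter, a filter at 5 TPM, median-ratio scaling, rescaling to nuclear protein-coding genes, a replicate block, fits of the compared groups alone and leaving out each mouse. Pairs of mice were left out together as an alternative chosen after seeing the data. Replicate numbers carry no pairing in the labels.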

Additional observations from a re-analysis of the deposited data

How the results depend on the processing

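Of 259 recounts of the collagens past the threshold, 222 stayed within 1.5 times the count reported. In most comparisons the reported count was 0, so an unchanged recount there was again 0. Direction was checked for collagens that passed or had the 3 smallest p of a comparison. It was also checked for named partner and marker genes that passed. None of these genes turned its direction in any alternative, and other named genes were not checked. With the filter at 5 TPM the count was 0 for the line average, at 18 months and at 20 months untreated, because Col28a1 was then not tested, and it was also 0 at 18 months and 20 months untreated when only the compared groups were fitted, for the same reason. With no filter the count was 2 for the line average (Col6a4 lower in CYP19A1), 0 for the lines at 20 months untreated, 1 for the lines under letrozole (Col22a1 lower) and 1 for age in the CYP19A1 line (Col22a1 higher). With median-ratio scaling it was 2 for the line average (Col5a3 lower), 1 for the lines under tamoxifen (Col7a1 lower), 1 for age in the CYP19A1 line (Col14a1 higher), 1 for tamoxifen in the Esr1 line (Col12a1 higher) and 5 for letrozole in the Esr1 line (2 of them higher). With rescaling to nuclear protein-coding genes it was 2 for the line average, 2 for age in the CYP19A1 line and 4 for letrozole in the Esr1 line (2 of them higher). For age in the CYP19A1 line it was 1 when only the compared groups were fitted (Col14a1). As alternatives chosen after seeing the data, leaving out replicate 2 of the untreated 20-month Esr1 mice with replicate 3 of the CYP19A1 letrozole mice gave 2 for the line average, 0 for the lines at 20 months untreated and 1 for letrozole in the Esr1 line, and leaving out the 2 libraries with the lowest muscle level gave 2 for age in the CYP19A1 line (Col9a2 and Col9a3 lower). The cause of these shifts was not tested.

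Leaving out each mouse gave 1 to 2 collagens for the line average, 0 to 1 at 18 months, 0 to 1 at 20 months untreated, 0 to 1 for age in the CYP19A1 line, 0 to 2 for tamoxifen and 0 to 4 for letrozole in the Esr1 line, and 0 in each of the other 10 comparisons. The count of 4 came without replicate 1 of the untreated Esr1 mice and the count of 0 for letrozole without letrozole replicate 2. The replicate block changed no count of collagens, with 1, 1 and 1 for the line average, 18 months and 20 months untreated and 2 for letrozole in the Esr1 line. Replicate numbers did not pair the samples: every same-number correlation of deviations was over 0.1 in 2 of 28 group pairs, with a range of -0.69 to 0.586 over 5000 genes. Of 893 recalculations for partner and marker genes that passed, 239 lost the call and 654 kept it. Median-ratio scaling put the median of all genes in the age comparison of the CYP19A1 line at -0.02, against -0.23 without it, and the summed collagen level at 1179 ± 206 TPM in 18-month CYP19A1 mice and 1171 ± 182 TPM in 18-month Esr1 mice (SD, n = 3 each).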
